A study of Bos taurus with 12 samples.

Results

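The subunits of RNA polymerase I, II and III were followed in the liver of 4-d old Holstein heifer calves. They were taken as genes of the count files whose bovine RefSeq symbol, matched by Entrez gene ID, begins with POLR1, POLR2 or POLR3. Of the 30336 gene IDs counted, 30 such genes are described: 8 POLR1, 13 POLR2 and 9 POLR3 genes. Biopsies came from calves of 12 dams on a common close-up diet, 6 without added Met (CON) and 6 with ethyl-cellulose coated Met (MET) for the last 28 d of gestation, and all calves were fed and managed alike after birth. The question put to the data was whether the maternal Met supply went with a different abundance of the mRNA for these enzymes in the newborn liver.

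Nuclear genes are read by these 3 enzymes. RNA polymerase I makes the precursor of the large ribosomal RNA, RNA polymerase II makes all mRNA, and RNA polymerase III makes tRNA, the smallest ribosomal RNA and other short RNA. Each enzyme is built on a catalytic pair of large subunits, an alpha-like pair that starts assembly, a set of small subunits common to all of them, a zinc ribbon subunit and a stalk that holds the emerging RNA. RNA polymerases I and III also carry permanently bound subunits that do the work of separate initiation factors in RNA polymerase II. In a newborn liver, which makes much of the plasma protein, these enzymes supply both the ribosomes and the messages. The libraries were made from polyadenylated RNA, so the values are the abundance of the mRNA coding for the subunits. They measure neither the enzymes nor their ribosomal and transfer RNA products, and in whole tissue fewer cells of a type and less RNA per cell cannot be told apart.

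Each library held between 8277789 and 10397604 counted reads, of which 4470 to 6604 reads, or 0.0496 to 0.0737%, fell on the 30 genes. Between CON replicates 1 and 4 the chi-square per gene was 1.333 and between MET replicates 1 and 3 it was 1.241, where counting noise alone gives about 1, against 25.1 to 132.9 in the other 64 pairs. The labels name different animals for them. Both pairs joined the same pair of second index sequences. The reads of each pair were therefore summed, each pair counts as 1 sample, and means ± SD are over 5 samples per diet. All CON libraries carried one first index and all MET libraries another, so index and diet cannot be told apart. Hepatocyte markers, ALB and APOA1 among them, summed, in CPM (reads of a gene scaled to the reads of its library), to 102104 to 138608 CPM in CON and 81218 to 121368 CPM in MET samples, and of the 10, all detected, 3 were lower in MET at an unadjusted p of at most 0.05 and 0 higher. Kupffer cell and macrophage markers summed to 1420 to 1873 CPM in CON and 1700 to 2257 CPM in MET samples, with 4 of 10 higher and 0 lower at that p. Among all genes tested, 7.83% were higher and 8.52% lower at that p. Erythroid markers summed to 8.82 to 1081 CPM in CON and 65.5 to 589 CPM in MET samples, with 0 of 3 tested higher or lower. Of 6 sinusoidal endothelium markers 1 was lower and 0 higher. Cholangiocyte, stellate cell and lymphocyte markers had 0 either way. The part of these cells in the values below was not tested. Skeletal muscle markers stayed at or below 0.223 CPM in sum, with ACTA1 and CKM at 0 reads.

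Most of these genes had a higher mean in MET calves, with POLR2I of RNA polymerase II and POLR1H of RNA polymerase I at the largest fold changes among them. Of the 30 genes, 23 had a higher and 7 a lower fitted mean in MET, with a median log2 fold change of 0.15, while 49.5% of the 13242 genes tested were higher, with a median of 0.00. At an unadjusted p of at most 0.05 (edgeR's quasi-likelihood test over the 10 samples), 8 of the 30 genes were higher in MET and 0 lower, against 7.83% higher and 8.52% lower among all genes tested. The 8 genes were POLR2E, POLR2F, POLR2G, POLR2H, POLR2I, POLR2J, POLR1C and POLR1H. After Benjamini-Hochberg adjustment over all genes tested, none of the 30 genes, and 0 of all genes (0%), passed FDR 0.10 in that test, where the lowest adjusted p of any gene was 0.156. DESeq2 on the same samples gave FDR at most 0.10 to 2 of the 30 genes, POLR2G and POLR2I, both higher in MET, against 2.12% of all genes tested higher and 2.44% lower. With every library taken as a sample of its own, as in the methods of the study, POLR2G, POLR2I and POLR2J passed FDR 0.10 by the same edgeR test, all higher in MET, against 2.09% of genes higher and 2.32% lower. The 5 MET samples all lay above the 5 CON samples in 4 of the 30 genes, against 1.91% of all genes tested, and in 0 of them did they all lie below, against 1.8%.

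**Figure D1:**
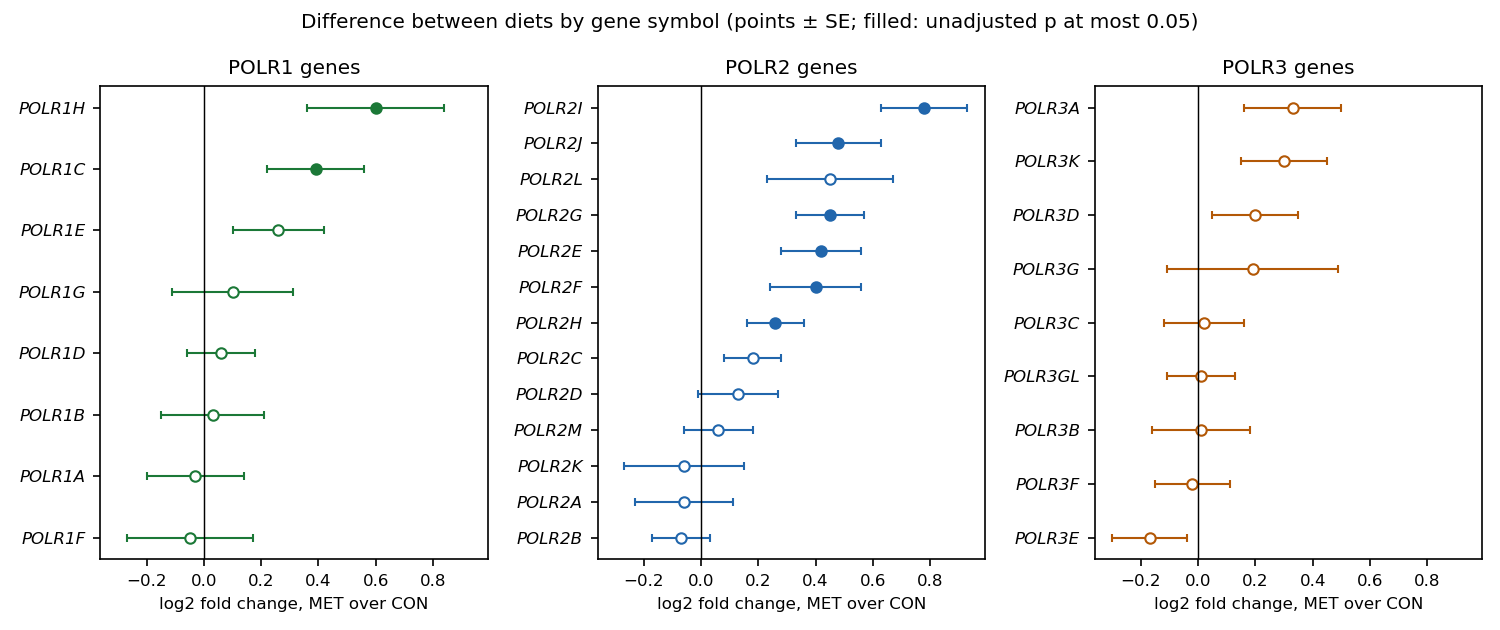
Log2 fold change of MET over CON for each subunit gene (x axis), one panel per symbol group, with points ± SE from the fit over 10 samples; filled points have an unadjusted p of at most 0.05. Of the filled points, 6 are POLR2 and 2 are POLR1 genes, and all lie to the right of 0.

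By gene symbol, the POLR2 genes had the largest share. A symbol is not an enzyme, since 5 of the POLR2 genes code for subunits of all 3 enzymes and POLR1C and POLR1D for subunits of RNA polymerases I and III. Of the 13 POLR2 genes, 6 (46.2%) were higher in MET at an unadjusted p of at most 0.05, against 7.83% of all genes tested. The median log2 fold change of the 13 was 0.26. These 6 were POLR2G, POLR2I and POLR2J, particular to RNA polymerase II, and POLR2E, POLR2F and POLR2H, common to all 3 enzymes. The POLR1 genes had 2 of 8 and a median of 0.08, and the POLR3 genes described had 0 of 9 and a median of 0.02. The groups were unlike in length, with a median of 1299 exonic bases for POLR2, 1603 for POLR1 and 3438 for POLR3 genes. Values with the trend on gene length removed are given below. Whether these groups differ from each other was not tested. These counts moved with single samples. Without CON replicate 2, 3 or 5 the count of POLR1 genes was 0, and without any other sample 1. Without CON replicate 5 or 6, MET replicates 1 and 3 or MET replicate 2, that of POLR3 genes was 1. For POLR2 genes the count was between 4 and 7, with 4 and a median of 0.21 when MET replicate 6 was left out. The members' median deviation from the mean of each gene in all samples, on the log2 scale, was from −0.26 to −0.03 in the CON and from 0.09 to 0.31 in the MET samples for the POLR2 genes. This median over the set did not overlap between the diets, although 9 of the 13 genes did when taken singly. For the POLR1 genes it ran from −0.37 to 0.36 in CON and from −0.02 to 0.26 in MET, and for the POLR3 genes from −0.17 to 0.18 and from −0.06 to 0.06. CON replicate 6 was the highest of all samples for both of these groups. For the POLR1 genes it was the only CON sample above any MET sample, with the others at −0.06 or lower. For the POLR3 genes the diets overlapped without it too, with CON replicate 5 at 0.03.

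POLR2I codes for the zinc ribbon subunit of RNA polymerase II (RPB9), which bears on the accuracy of transcription. On the UMD 3.1.1 assembly, to which all positions refer, it is gene ID 614472 on chromosome 18 from 46961969 to 46963214, minus strand, with 432 exonic bases, of which 3.47% face OVOL3 on the other strand. The POLR2I message was counted at 12.7, 14.8, 8.78, 12.1 and 11.7 CPM in the CON samples (the pair of replicates 1 and 4, then replicates 2, 3, 5 and 6) and at 21.3, 21.3, 19.2, 17 and 23.8 CPM in the MET samples (the pair of replicates 1 and 3, then replicates 2, 4, 5 and 6), an order kept for all values that follow. Every MET sample was above every CON sample. This gave 12 ± 2.16 CPM in CON and 20.5 ± 2.59 CPM in MET (SD, n = 5). From CON to MET, POLR2I had a log2 fold change of 0.78 (SE, standard error, 0.15, unadjusted p = 0.000179, adjusted p = 0.156, exact two-sided permutation p = 0.00794). With every library taken alone, the log2 fold change of POLR2I was 0.77 (adjusted p = 0.0381). Of the 30 genes it had the lowest unadjusted p.

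Zinc ribbon subunits of the other enzymes were also higher on average. POLR1H (gene ID 535288 on chromosome 23 from 28714104 to 28718285, minus strand) codes for the RNA polymerase I counterpart, which can cut back a stalled transcript. The MET samples had 10.4, 11.7, 9.76, 18.2 and 10.7 CPM of POLR1H and the CON samples 12.7, 6.27, 7.64, 6.34 and 6.62 CPM. The groups overlapped through 1 CON sample, the pair of replicates 1 and 4, which stood at 12.7 CPM while the other CON samples were at most 7.64 CPM. On average POLR1H was at 7.92 ± 2.75 CPM in CON and 12.1 ± 3.45 CPM in MET (SD, n = 5), a log2 fold change of 0.60 (SE 0.24). Its unadjusted p was 0.0281, its adjusted p 0.257 and its exact two-sided permutation p 0.0397. As 12 libraries POLR1H no longer passed an unadjusted p of 0.05, with a log2 fold change of 0.44 (unadjusted p = 0.0699, exact two-sided permutation p = 0.0671). Without the pair of CON replicates 1 and 4 the log2 fold change of POLR1H was 0.85, and without MET replicate 5 it was 0.41. For POLR3K, the RNA polymerase III counterpart with a role in transcript cleavage and termination, the mean was 20.8 ± 4.23 CPM in CON and 25.7 ± 3.24 CPM in MET (SD, n = 5). POLR3K thus had a log2 fold change of 0.30 (SE 0.15), with an unadjusted p of 0.0672 in edgeR's quasi-likelihood test. Of these 3 subunits, 2 passed an unadjusted p of 0.05, both higher in MET, against 7.83% of all genes tested.

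Of the 3 stalk genes described, 1 was higher in MET at an unadjusted p of at most 0.05, against 7.83% of all genes tested. POLR2G (gene ID 526320 on chromosome 29 from 41777025 to 41780284, plus strand) codes for RPB7, the RNA-binding part of the RNA polymerase II stalk. For POLR2G, the CON values were 22.7, 31, 21.7, 24.4 and 28.4 CPM and the MET values 31.7, 32.9, 37.7, 33.7 and 39.5 CPM. The diets did not overlap. This gave 25.6 ± 3.95 CPM in CON and 35.1 ± 3.31 CPM in MET (SD, n = 5). From CON to MET, POLR2G had a log2 fold change of 0.45 (SE 0.12, unadjusted p = 0.00322, adjusted p = 0.175, exact two-sided permutation p = 0.00794). As 12 libraries, its log2 fold change was 0.46 (adjusted p = 0.0680). The partner of RPB7 in the stalk, coded by POLR2D, averaged 9.26 ± 1.44 CPM in CON and 10.1 ± 1.13 CPM in MET (SD, n = 5), with a log2 fold change of 0.13 (SE 0.14, adjusted p = 0.694). In RNA polymerase I the stalk gene POLR1F averaged 6.79 ± 2.06 CPM in CON and 6.52 ± 1.34 CPM in MET (SD, n = 5), a log2 fold change of −0.05 (SE 0.22, adjusted p = 0.931).

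**Figure D2:**
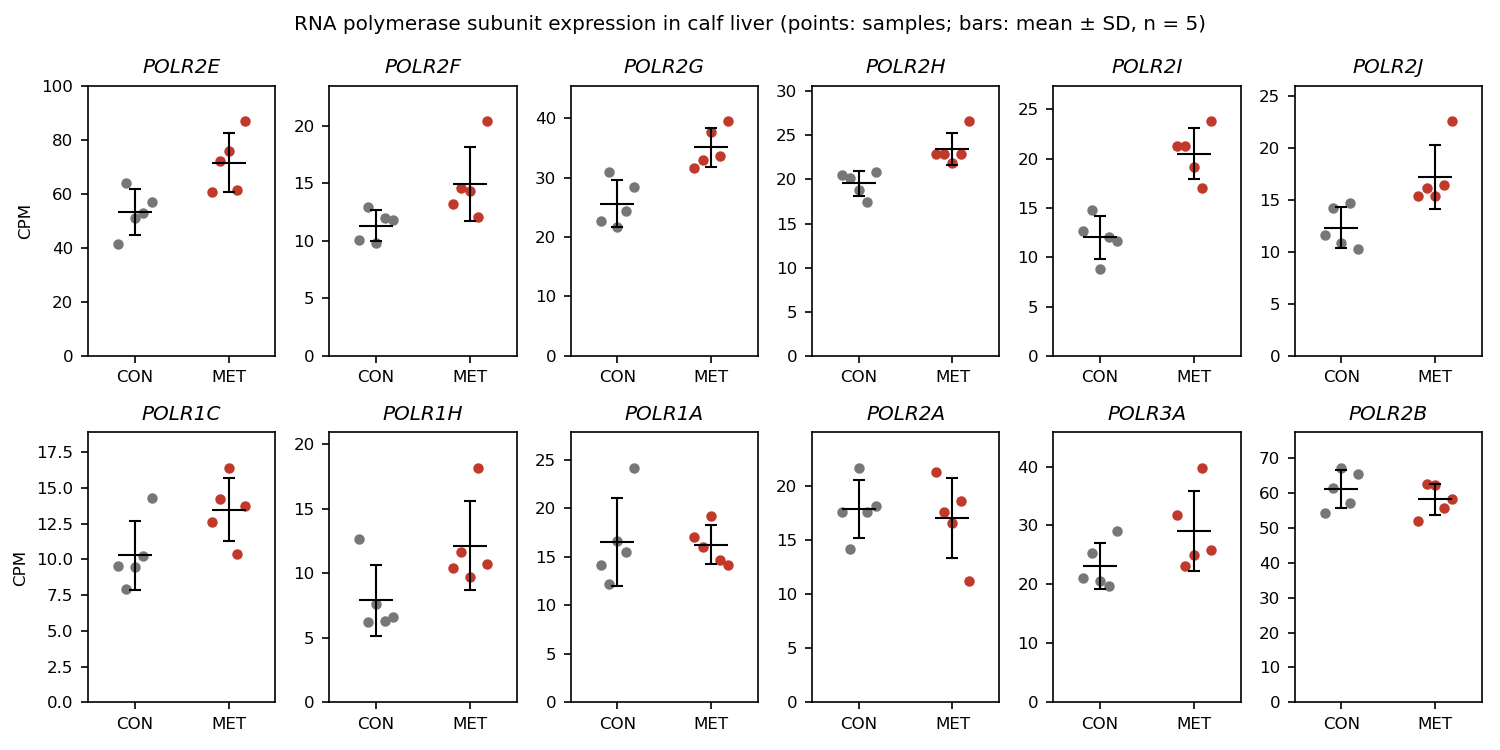
CPM (y axis from 0) of 12 subunit genes in the 5 CON and 5 MET samples; points are samples and bars the mean ± SD. The diets do not overlap in POLR2G, POLR2H, POLR2I and POLR2J, and overlap in the other 8 panels, among them the catalytic subunits POLR1A, POLR2A, POLR2B and POLR3A.

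Among the subunits common to all 3 enzymes, 3 of 5 were higher in MET at an unadjusted p of at most 0.05. Among all genes tested, 7.83% were higher at that p. With the trend on gene length described below removed, 2 of these 5 subunits were. POLR2E (gene ID 512971 on chromosome 7 from 45195512 to 45199965, minus strand) codes for RPB5, which grips the DNA ahead of the active site. POLR2E stood at 41.4, 64.2, 51.1, 53.1 and 57.3 CPM in the CON and at 61, 72.5, 76.1, 61.4 and 87.1 CPM in the MET samples. In MET, 3 samples were above every CON sample, and the other 2, near 61 CPM, lay below CON replicate 2. On average POLR2E was at 53.4 ± 8.36 CPM in CON and 71.6 ± 10.9 CPM in MET (SD, n = 5), a log2 fold change of 0.42 (SE 0.14). Its unadjusted p was 0.0117, its adjusted p 0.204 and its exact two-sided permutation p 0.0238. POLR2F (gene ID 534232 on chromosome 5 from 110249249 to 110257521, plus strand) codes for RPB6, which clamps the largest subunit to the rest. In CON samples POLR2F was at 10.1, 12.9, 9.8, 12 and 11.8 CPM, and in MET samples at 13.2, 14.6, 14.3, 12.1 and 20.4 CPM. In MET, 4 of the 5 samples exceeded all CON samples, with replicate 6 the highest. Means were 11.3 ± 1.33 CPM in CON and 14.9 ± 3.21 CPM in MET (SD, n = 5). POLR2F thus had a log2 fold change of 0.40 (SE 0.16), with an unadjusted p of 0.024 and an adjusted p of 0.244 in edgeR's quasi-likelihood test, and the exact two-sided permutation p was 0.0159. Without MET replicate 6 the log2 fold change of POLR2F was 0.26 (adjusted p = 0.385). POLR2H (gene ID 505599 on chromosome 1 from 83437865 to 83442294, minus strand) codes for RPB8, a small subunit of the common core. The MET samples had 22.9, 22.9, 21.9, 22.9 and 26.6 CPM of POLR2H and the CON samples 20.5, 20.2, 18.8, 17.5 and 20.9 CPM. The diets did not overlap, and the lowest MET sample stood at 21.9 CPM against 20.9 CPM in the highest CON sample. This gave 19.6 ± 1.42 CPM in CON and 23.4 ± 1.82 CPM in MET (SD, n = 5). From CON to MET, POLR2H had a log2 fold change of 0.26 (SE 0.10, unadjusted p = 0.0223, adjusted p = 0.239, exact two-sided permutation p = 0.00794).

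POLR2L, for RPB10, showed a fold of like size with a much wider spread. It averaged 27.8 ± 6.65 CPM in CON and 37.9 ± 12.4 CPM in MET (SD, n = 5), from 24.8 CPM in MET replicates 1 and 3 to 57.7 CPM in MET replicate 6. For POLR2L the log2 fold change was 0.45 (SE 0.22, adjusted p = 0.335). POLR2K, for RPB12, averaged 4.01 ± 0.627 CPM in CON and 3.88 ± 0.962 CPM in MET (SD, n = 5), a log2 fold change of −0.06 (SE 0.21, adjusted p = 0.920). POLR2K had the fewest reads of the 5, between 25 and 46 per library.

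The alpha-like subunits form the platform on which each enzyme is put together, POLR2C with POLR2J in RNA polymerase II and POLR1C with POLR1D in RNA polymerases I and III. All 4 had a higher mean in MET, and 2 passed an unadjusted p of 0.05, against 7.83% of all genes tested. With the trend on gene length described below removed, 1 of the 4 passed. POLR2J is gene ID 540428 on chromosome 25 from 35091302 to 35095680, plus strand. Samples of CON calves held 11.6, 14.2, 10.9, 14.7 and 10.3 CPM of POLR2J, those of MET calves 15.4, 16.2, 15.4, 16.5 and 22.6 CPM. All MET samples exceeded all CON samples, the lowest MET samples at 15.4 CPM and the highest CON sample at 14.7 CPM, and MET replicate 6 was far above the other MET samples. On average POLR2J was at 12.3 ± 1.94 CPM in CON and 17.2 ± 3.06 CPM in MET (SD, n = 5), a log2 fold change of 0.48 (SE 0.15). Its unadjusted p was 0.00749, its adjusted p 0.187 and its exact two-sided permutation p 0.00794. Counted as 12 libraries, the POLR2J log2 fold change was 0.47 (adjusted p = 0.0849). Its partner POLR2C averaged 29.9 ± 2.19 CPM in CON and 33.9 ± 2.76 CPM in MET (SD, n = 5), with a log2 fold change of 0.18 (SE 0.10, adjusted p = 0.396). POLR1C, shared by RNA polymerases I and III, is gene ID 516337 on chromosome 23 from 17035500 to 17042374, plus strand. For POLR1C, the CON values were 9.55, 7.9, 9.46, 10.2 and 14.3 CPM and the MET values 12.6, 14.2, 16.4, 10.4 and 13.7 CPM. The highest CON sample, replicate 6, was above 4 of the 5 MET samples. Means were 10.3 ± 2.39 CPM in CON and 13.4 ± 2.22 CPM in MET (SD, n = 5). POLR1C thus had a log2 fold change of 0.39 (SE 0.17), with an unadjusted p of 0.0459 and an adjusted p of 0.298 in edgeR's quasi-likelihood test, and the exact two-sided permutation p was 0.0714. POLR1D, its partner, averaged 9.73 ± 1.17 CPM in CON and 10.1 ± 0.536 CPM in MET (SD, n = 5), with a log2 fold change of 0.06 (SE 0.12, adjusted p = 0.853).

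None of the 6 genes for the catalytic pairs passed an unadjusted p of 0.05, with median log2 fold changes of −0.03 for the largest and 0.01 for the second largest subunits. POLR2A (gene ID 282312 on chromosome 19 from 27786959 to 27815343, plus strand) codes for RPB1, the largest subunit of RNA polymerase II, whose long tail of repeats is phosphorylated during transcription. POLR2A stood at 17.6, 14.2, 21.7, 17.6 and 18.2 CPM in the CON and at 21.3, 17.6, 16.6, 18.6 and 11.2 CPM in the MET samples. The range of the MET samples enclosed all but 1 of the CON samples. This gave 17.8 ± 2.66 CPM in CON and 17.1 ± 3.72 CPM in MET (SD, n = 5). From CON to MET, POLR2A had a log2 fold change of −0.06 (SE 0.17, unadjusted p = 0.729, adjusted p = 0.892, exact two-sided permutation p = 0.675). POLR2B (gene ID 538184 on chromosome 6 from 74027219 to 74071144, plus strand) codes for its catalytic partner RPB2. In CON samples POLR2B was at 54.2, 61.3, 67.2, 57 and 65.4 CPM, and in MET samples at 51.9, 62.6, 62.2, 55.8 and 58.3 CPM. These ranges overlapped widely. On average POLR2B was at 61 ± 5.44 CPM in CON and 58.1 ± 4.51 CPM in MET (SD, n = 5), a log2 fold change of −0.07 (SE 0.10). Its unadjusted p was 0.516, its adjusted p 0.775 and its exact two-sided permutation p 0.373.

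In RNA polymerase I, POLR1A (gene ID 536316 on chromosome 11 from 48629652 to 48713878, plus strand) codes for the largest subunit. The MET samples had 17.1, 16, 19.2, 14.7 and 14.2 CPM of POLR1A and the CON samples 14.2, 12.2, 16.6, 15.5 and 24.2 CPM. The CON samples took in the whole MET range. Means were 16.5 ± 4.59 CPM in CON and 16.2 ± 1.99 CPM in MET (SD, n = 5). POLR1A thus had a log2 fold change of −0.03 (SE 0.17), with an unadjusted p of 0.879 and an adjusted p of 0.956 in edgeR's quasi-likelihood test, and the exact two-sided permutation p was 1. POLR1B, for the second largest subunit, is gene ID 282342 on chromosome 11 from 46117227 to 46139199, plus strand. Samples of CON calves held 17.3, 17.3, 22.8, 22.1 and 31.2 CPM of POLR1B, those of MET calves 21.5, 26.6, 24.3, 24.7 and 15.9 CPM. Here too CON replicate 6 was the highest of all samples. This gave 22.2 ± 5.7 CPM in CON and 22.6 ± 4.14 CPM in MET (SD, n = 5). From CON to MET, POLR1B had a log2 fold change of 0.03 (SE 0.18, unadjusted p = 0.875, adjusted p = 0.954, exact two-sided permutation p = 0.841).

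In RNA polymerase III, POLR3A (gene ID 540308 on chromosome 28 from 33875845 to 33925033, minus strand) codes for the largest subunit. For POLR3A, the CON values were 21.1, 25.4, 20.6, 19.7 and 29 CPM and the MET values 31.7, 23.2, 25, 39.8 and 25.9 CPM. MET replicate 5 and the pair of MET replicates 1 and 3 exceeded all CON samples, and the other MET samples lay within the CON range. On average POLR3A was at 23.2 ± 3.92 CPM in CON and 29.1 ± 6.78 CPM in MET (SD, n = 5), a log2 fold change of 0.33 (SE 0.17). Its unadjusted p was 0.0702, its adjusted p 0.346 and its exact two-sided permutation p 0.119. Once the trend on gene length described below was removed, POLR3A had a log2 fold change of 0.46 with an unadjusted p of 0.0176. POLR3B, its catalytic partner, is gene ID 540839 on chromosome 5 from 70062608 to 70178439, plus strand. POLR3B stood at 10.3, 14, 13.8, 12.1 and 14.4 CPM in the CON and at 10.5, 14.7, 12.1, 10.4 and 17.6 CPM in the MET samples. Of the MET samples, 2 were above all CON samples and the other 3 within the CON range. Means were 12.9 ± 1.7 CPM in CON and 13 ± 3.08 CPM in MET (SD, n = 5). POLR3B thus had a log2 fold change of 0.01 (SE 0.17), with an unadjusted p of 0.935 and an adjusted p of 0.979 in edgeR's quasi-likelihood test, and the exact two-sided permutation p was 0.992.

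None of the 8 subunits that act in initiation passed an unadjusted p of 0.05, with or without the length trend. POLR1E and POLR1G code for a pair bound to RNA polymerase I that resembles a general initiation factor. POLR1E averaged 15.9 ± 2.24 CPM in CON and 19.1 ± 4.55 CPM in MET (SD, n = 5), with a log2 fold change of 0.26 (SE 0.16, adjusted p = 0.458), and POLR1G had a log2 fold change of 0.10 (SE 0.21). The corresponding pair of RNA polymerase III, POLR3D and POLR3E, had log2 fold changes of 0.20 (SE 0.15) and −0.17 (SE 0.13). POLR3C and POLR3F, of the subcomplex that opens the promoter, had log2 fold changes of 0.02 (SE 0.14) and −0.02 (SE 0.13). POLR2M, which codes for a protein that binds RNA polymerase II and holds back its initiation, averaged 26.2 ± 1.89 CPM in CON and 27.4 ± 3.95 CPM in MET (SD, n = 5), a log2 fold change of 0.06 (SE 0.12).

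POLR3G and POLR3GL code for alternative forms of one subunit of that RNA polymerase III subcomplex, the first known from embryonic and dividing cells and the second from differentiated tissue. The first is gene ID 613778 on chromosome 7 from 92390969 to 92437208, plus strand, the second gene ID 505641 on chromosome 3 from 21502096 to 21520264, minus strand. In CON samples POLR3G was at 1.73, 1, 1.14, 1.77 and 2.17 CPM, and in MET samples at 1.82, 2.53, 1.03, 2.23 and 1.34 CPM. These values rest on 8 to 27 reads per library, and in all libraries were above the floor of 3 reads, which equals 0.289 to 0.362 CPM and covers counting error only. This gave 1.56 ± 0.483 CPM in CON and 1.79 ± 0.617 CPM in MET (SD, n = 5). From CON to MET, POLR3G had a log2 fold change of 0.19 (SE 0.30, unadjusted p = 0.553, adjusted p = 0.8, exact two-sided permutation p = 0.556). The MET samples had 23.3, 20.9, 19.9, 19.1 and 21.3 CPM of POLR3GL and the CON samples 25.5, 18, 20, 21.3 and 19 CPM. All samples of either diet lay between 18 and 25.5 CPM. On average POLR3GL was at 20.8 ± 2.91 CPM in CON and 20.9 ± 1.61 CPM in MET (SD, n = 5), a log2 fold change of 0.01 (SE 0.12). Its unadjusted p was 0.956, its adjusted p 0.986 and its exact two-sided permutation p 0.889. Per kilobase of exon, the POLR3GL message was 11.8 times as abundant as that of POLR3G in CON and 10.5 times in MET, by the mean of the log2 ratios. The log2 ratio of POLR3G to POLR3GL per length was −3.56 ± 0.41 in CON and −3.40 ± 0.52 in MET (SD, n = 5), a difference of 0.16 (exact two-sided permutation p = 0.627).

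Levels of different genes were compared as CPM per kilobase of exon, with the single exonic length that the count files give per gene. Among the POLR2 genes the mean over 10 samples ran from 87.3 ± 28.7 for POLR2L through 48.1 ± 10.2 for POLR2E, 38.9 ± 7.75 for POLR2G and 37.6 ± 11.6 for POLR2I down to 2.78 ± 0.489 for POLR2A and 2.18 ± 0.425 for POLR2K (SD, n = 10). The order of POLR2G and POLR2I turned between the diets, with 32.8 and 27.8 in CON and 44.9 and 47.5 in MET. Of the 12 steps in this order, only that from POLR2M, at 10.7, to POLR2A separated the ranges of both genes over the samples. The mRNA of the largest subunit was thus among the scarcest per length, below that of its partner POLR2B at 15.7 ± 1.30 in all 10 samples. Among the POLR3 genes, POLR3K led at 28.7 ± 5.42, above POLR3D at 8.21 ± 1.41 in all samples, and POLR3G came last at 0.488 ± 0.156. Those at either end, from POLR3K to POLR3D and from POLR3E to POLR3G, were the only neighbours of 8 whose ranges did not overlap. Among the POLR1 genes, where all 7 neighbours overlapped, the order led from POLR1D at 14.2 ± 1.27 to POLR1A at 2.71 ± 0.552. For comparison, POLR3A was at 3.60 ± 0.839 (SD, n = 10).

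**Figure D3:**
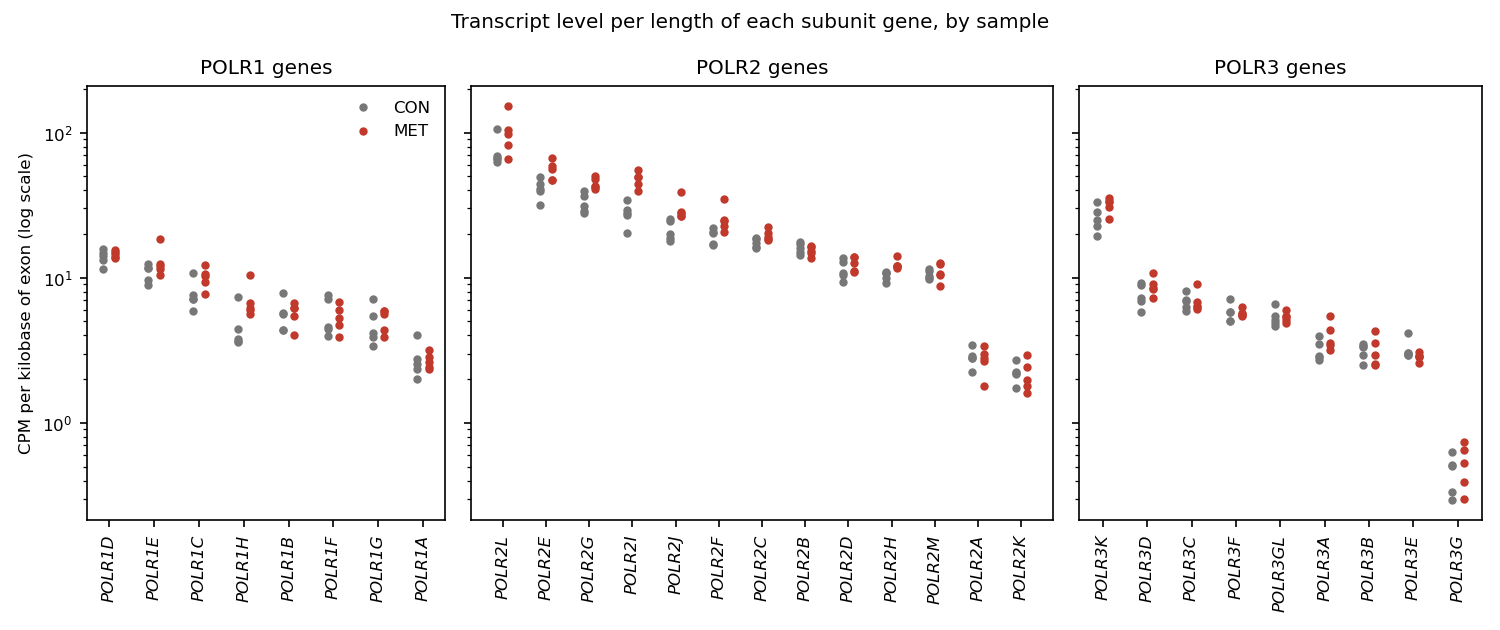
CPM per kilobase of exon (y axis, log scale) of every subunit gene in the 10 samples, CON and MET beside each other, ordered by mean within each symbol group. The small POLR2 subunits reach 153 for POLR2L, whereas POLR2A reaches 3.44 and POLR2K 2.92, and POLR3G is the lowest of all genes shown.

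The gene with the lowest p was set against the largest subunit of its enzyme within each sample. Per kilobase, the log2 ratio of POLR2I to POLR2A was from 2.57 to 3.93 in CON and from 3.73 to 4.95 in MET samples, with means of 3.29 ± 0.49 and 4.15 ± 0.48 (SD, n = 5). This ratio was chosen after the values were seen and is given without a test, and it overlapped between the diets. Both genes of a ratio share a library but not a length, with 432 and 6292 exonic bases, and once the length trend was removed their log2 fold changes were 0.57 and 0.07 in place of 0.78 and −0.06.

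Over all genes tested, and among the POLR2 genes, longer genes had lower fold changes. Taken across genes, which are no replicates of each other, the log2 fold change correlated with log2 exonic length with r = −0.26 (Spearman's rho −0.30) over the 13242 genes tested and with r = −0.62 (rho −0.62) over the 30 subunit genes. Within the 13 POLR2 genes r was −0.84 (rho −0.87), within the 8 POLR1 genes −0.25 (rho −0.10), and within the 9 POLR3 genes −0.10 (rho 0.00), so that the ranks within these 2 groups showed little or no trend. For each doubling of length, the expression of all genes tested, relative to the mean of the samples, changed by −0.02 to 0.10 on the log2 scale in CON and by −0.11 to 0.01 in MET samples. The steepest value was that of MET replicate 6, the sample with the highest POLR2E, POLR2F, POLR2G, POLR2H, POLR2I, POLR2J and POLR2L and the lowest POLR2A. Of the 12 subunit genes with under 1500 exonic bases, 6 were higher in MET at an unadjusted p of at most 0.05, against 16.9% of all genes tested of that length, and their median log2 fold change was 0.39 against 0.16. Of the 18 longer ones, 2 were higher, against 5.66%, with a median of 0.03 against −0.04. In 3 of the 12 shorter genes all MET samples lay above all CON samples, against 107 of 2543 genes tested of that length. Those 12 had a median length of 795 bases, against 1094.

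When the trend of each sample on length was removed, 7 of the 30 genes were higher at an unadjusted p of at most 0.05, against 7.83% of all genes tested. They were 5 POLR2 genes (POLR2E, POLR2G, POLR2H, POLR2I and POLR2J), POLR1H and POLR3A. With that removal, the log2 fold change of POLR2I was 0.57 in place of 0.78 and that of POLR2G 0.29 in place of 0.45, while POLR1H, with 1737 exonic bases, had 0.57 in place of 0.60. POLR2J had 0.28 in place of 0.48, POLR2L 0.22 in place of 0.45 and POLR3K 0.15 in place of 0.30. Among genes near 0 in either fit, POLR1A, POLR1D, POLR2A and POLR2D changed sign, to 0.10, −0.12, 0.07 and −0.02. POLR2F and POLR1C no longer passed, with log2 fold changes of 0.20 and 0.30 in place of 0.40 and 0.39. In that fit none of the 30 genes had FDR at most 0.10. The median of the POLR2 genes was 0.20 in place of 0.26, that of the POLR1 genes 0.11 in place of 0.08 and that of the POLR3 genes 0.09 in place of 0.02, with all genes tested at 0.03. Within the POLR2 genes r with length was −0.58. How far the length trend accounts for the difference of the small subunits was not tested beyond this removal.

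**Figure D4:**
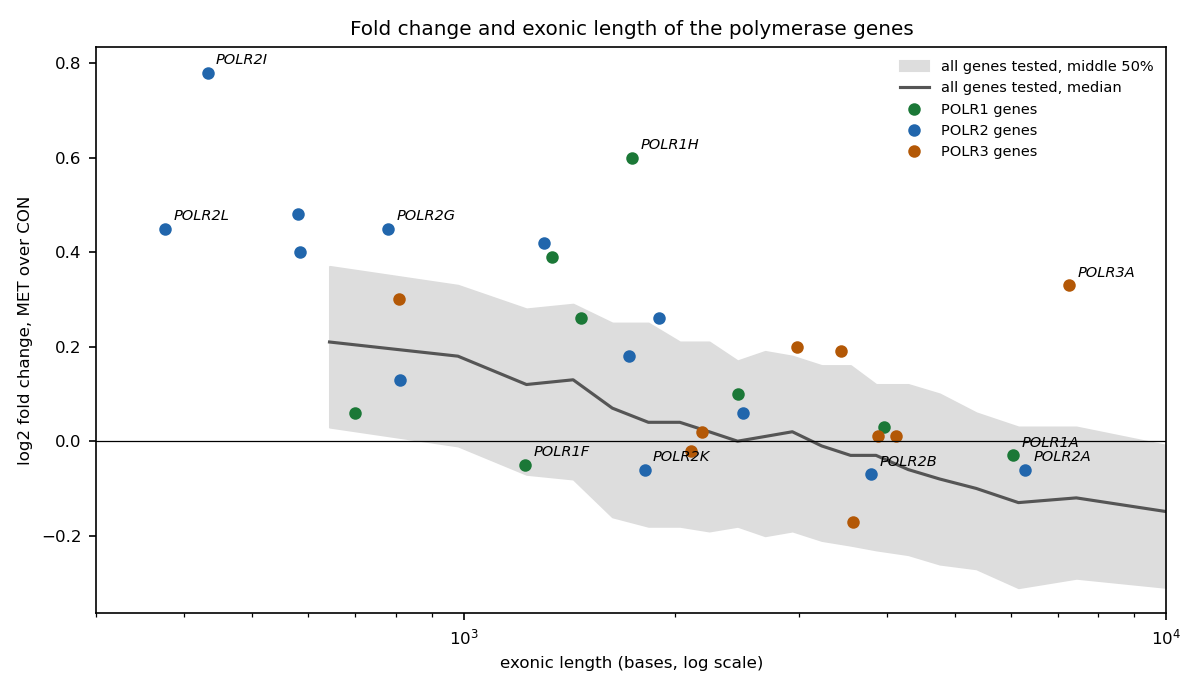
Log2 fold change of MET over CON (y axis) against exonic length (x axis, log scale) for the 30 subunit genes, with the median and the middle 50% of all genes tested in 20 bins of length. POLR2I at 0.78 and POLR1H at 0.60 are the highest points. The grey band begins at 644 bases, and shorter genes, POLR2I among them, lie to the left of it. POLR1H lies above the band, and POLR2A and POLR2B lie within it.

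Genes that work with the polymerases were read from lists written from general knowledge. Of 7 factors of RNA polymerase I, all tested, 1 was higher at an unadjusted p of at most 0.05 and 0 lower, with a median log2 fold change of 0.13, where 7.83% of all genes tested were higher and 8.52% lower. It was TAF1C, of the promoter selectivity factor, with 10.9 ± 1.96 CPM in CON and 15.1 ± 1.37 CPM in MET (SD, n = 5) and a log2 fold change of 0.47 (SE 0.14, adjusted p = 0.183). Of 31 general initiation factors of RNA polymerase II, 5 were higher (TAF9, TAF10, TAF12, GTF2F1 and CCNH) and 0 lower, with a median of 0.06. TAF10, a subunit of the TATA-binding factor, averaged 47.6 ± 4.70 CPM in CON and 63.1 ± 7.45 CPM in MET (SD, n = 5), with a log2 fold change of 0.41 (SE 0.12) and an adjusted p of 0.178 over the 10 samples and 0.0734 over the 12 libraries. Of 16 RNA polymerase III factors, 15 were tested (GTF3C4 was below the filter), 2 were higher (GTF3C5 and SNAPC4) and 0 lower, and the median was 0.12. GTF3C5, a subunit of the factor that recognises tRNA genes, averaged 15.9 ± 1.36 CPM in CON and 24.0 ± 2.59 CPM in MET (SD, n = 5). It had a log2 fold change of 0.59 (SE 0.11) and an adjusted p of 0.156 over the 10 samples and 0.0398 over the 12 libraries. Of 14 assembly factors of the polymerases 4 were higher (GPN2, RUVBL2, PFDN2 and PFDN6) and 0 lower, with a median of 0.21. Among them was PFDN6, a prefoldin subunit, with a log2 fold change of 0.32 (SE 0.11) and an adjusted p of 0.201 over the 10 samples and 0.0812 over the 12 libraries. Of 5 genes of mitochondrial transcription 0 were higher and 1 lower (TFAM), with a median of −0.01. Genes given here by name alone were chosen after their values were seen. With the length trend removed, the medians were 0.16 for the RNA polymerase I factors, 0.07 for those of RNA polymerase II, 0.17 for those of RNA polymerase III, 0.16 for the assembly factors and −0.02 for the mitochondrial genes.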

How the data were processed

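Liver RNA of 12 calves (6 CON, 6 MET) was sequenced from polyadenylated, stranded libraries. The authors aligned the reads with STAR 2.5.3a and counted them per gene and strand with featureCounts of Subread 1.5.2 on the UMD 3.1.1 assembly. The deposited values are raw read counts with exonic lengths, without normalization. Symbols were matched by Entrez ID in a RefSeq table of ARS-UCD2.0, which named 25105 of 30336 IDs.

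Library pairs with a chi-square per gene under 2 were summed, which left 10 samples. Genes kept by filterByExpr (minimum count 10, minimum total 15; 13242 genes, all 30 subunits described included) were fitted in R 4.3.3 with edgeR 4.0.16, using TMM factors, diet alone, the quasi-likelihood test and Benjamini-Hochberg adjustment over all genes. Standard errors were derived from the F statistic. Exact two-sided permutation tests used log2 CPM with a prior count of 2 over 252 arrangements, so that the smallest p they can give is 0.00794. The p-values of the fits set the difference between diets against the spread between these samples. Those of the permutation tests set it against other arrangements of the diet labels. Log2 fold changes are MET over CON. The length trend was removed per sample with a loess curve (span 0.5) entered as an offset. The code was tested on simulated data.

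Per-sample values and full statistics were given for genes with an unadjusted p of at most 0.05 or FDR at most 0.10 over the 12 libraries, for the catalytic subunits and for POLR3G and POLR3GL. A gene that meets the rule for members is not reported here and is left out of every count and median over the subunits, though not out of the fit. Members, lists and tests were chosen with earlier results of these data known. Alternatives were the 12 libraries with and without a replicate block, RLE scaling, library size only, no filter, DESeq2 1.42.0, robust estimation, the length offset, each sample left out and, chosen after seeing the data, one library of each near-identical pair.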

Additional observations from a re-analysis of the deposited data

Results flagged for a closer look

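In 8 of 60 groups of 5 samples (30 genes in both diets), 1 sample stood far from the other 4 of its diet, as judged by its gap to the nearest sample relative to the range. The limit was meant to mark about 1 in 20 groups of independent, normally distributed values. Its rate for these values, from genes measured in the same samples, was not tested. In MET, replicate 6 was highest for POLR2H at 26.6 CPM (others 21.9 to 22.9) and for POLR2J at 22.6 CPM (others 15.4 to 16.5). For POLR1E, MET replicate 4 was at 27 CPM (others 15.5 to 18.4). For POLR3C, MET replicate 2 was at 19.7 CPM (others 13.4 to 14.9). POLR1H was set apart in both diets, with 12.7 CPM in the pair of CON replicates 1 and 4 (others 6.27 to 7.64) and 18.2 CPM in MET replicate 5 (others 9.76 to 11.7). Among the other CON samples, replicate 2 stood at 39.6 CPM for POLR2L (others 23.7 to 25.9) and replicate 6 at 14.8 CPM for POLR3E (others 10.4 to 10.9).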

How the results depend on the processing

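None of the 8 genes with an unadjusted p of at most 0.05 changed direction in 20 alternatives each. POLR2G and POLR2I passed FDR 0.10 both as 12 libraries and with DESeq2 (adjusted p = 0.0494 and 0.00184), and POLR2J over the 12 libraries alone. Genes with FDR at most 0.10, 0 over the 10 samples, numbered 583 over the 12 libraries and 604 with DESeq2, of which 3 and 2 were POLR2 genes. The 12 libraries count the near-identical pairs as separate samples. With a replicate block over the 12 libraries the number was 6, and none of the 8 genes was among them (adjusted p from 0.143 to 0.36). The replicate numbers did not pair the samples (correlations from −0.20 to 0.18, and 0 of 6 CON libraries correlated best with their own number). At an unadjusted p of at most 0.05, POLR1 genes higher in MET numbered 1 in place of 2 over the 12 libraries (POLR1C, without POLR1H), with the block, with library size only and with the length offset, and POLR3 genes 1 in place of 0 over the 12 libraries, with the block and with the length offset; the cause was not tested. Leaving out each sample in turn gave 0 to 39 genes with FDR at most 0.10 (39 without the pair of MET replicates 1 and 3), 0 to 1 POLR1 genes and 0 to 1 POLR3 genes at that p. The POLR1 median log2 fold change then ranged from 0.04 to 0.23, the POLR2 median from 0.21 to 0.28 and the POLR3 median from 0.01 to 0.1. With the block, the POLR3 median was −0.00 in place of 0.02, a change of sign within rounding of 0. Using 1 library of each near-identical pair kept the FDR count at 0 and the POLR2 count at 6. Depth limits POLR3G and POLR2K most, with as few as 8 and 25 reads in a library.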
